A study of Oryza sativa with 2 samples.

Results

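Cleavage of the transcripts that pair with the copper-linked small RNAs miR397, miR408 and miR528 was examined in the rice mesocotyl, the organ below the coleoptile whose growth in darkness carries a buried rice shoot to the surface. Every listed pair of a small RNA of these families and a transcript with at least 1 read at the predicted cut was taken, and pairs were joined where they named the same transcript and position. This gave 22 of the 3262 pairs with reads, on 18 of 2064 sites, in 17 of 1730 transcripts and 12 of 823 genes. Since reads were the condition of entry, their presence is not a result. A plain text match to miR397 also takes in miR3979, a different small RNA whose name only begins alike, and its 13 sites in 8 genes were left out. Of the 12 genes, 5 carried the deposited term copper ion binding and 4 only the term anchored component of plasma membrane, and the other 3 carried neither. The table thus bears out the copper link for 5 genes. The genes analysed were ZS07g0470600, ZS03g0155600, ZS09g0219100, LAC8 (ZS01g0703700), a pair of genes that share the symbol LAC12 (ZS05g0469500 and ZS05g0469700), and 6 with at most 2 reads in either library.

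The 2 libraries came from mesocotyls of the indica cultivar P25 raised on Murashige and Skoog medium. Seedlings of the dark library (D_5d) had 5 days of darkness, and those of the light library (L_1h) had 1 h of light after the same 5 days. There was 1 library per condition, so every difference compares these libraries and has no replicate check, and how many seedlings each pooled is not given in the labels. Library totals were 15422946 reads in darkness and 34051452 in the light, 2.21 times as many. Levels are in TPB, the authors' scaling of reads at the cut to the library total, in which 1 unshared read was worth 64.8 TPB in darkness and 29.4 in the light. Intervals are exact 95% Clopper-Pearson intervals and allow for counting error alone, as amplified reads that carry no molecular identifier may copy a single molecule. The table holds cut sites and no transcript levels, so the tissue label could not be checked against marker genes. More transcript, more cells that make it and more cutting cannot be told apart in such reads.

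A plant microRNA guides an Argonaute protein to a transcript that pairs with it along most of its length, and the transcript is cut opposite the middle of the small RNA. Degradome sequencing reads the uncapped end that this cut leaves. miR397, miR408 and miR528 are known for transcripts of copper proteins of the cell wall and plasma membrane, among them laccases, which polymerise lignin, small blue copper proteins, and ascorbate oxidase. In Arabidopsis, miR397 and miR408 accumulate when copper is short, which spares copper for photosynthesis, and miR528 is a monocot small RNA.

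The small RNAs that had reads at their sites are shown 5′ to 3′ as deposited, with T for U, because their first base sets where a cut is predicted. Capitals mark the seed, bases 2 to 8.
osa-miR528-5p: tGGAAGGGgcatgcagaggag
osa-miR408-3p: cTGCACTGcctcttccctggc
gma-miR408a-3p_L-1R+3: tGCACTGCctcttccctggcttt
osa-miR408-5p: cAGGGATGaggcagagcatgg
osa-MIR397a-p5: tTGAGTGCagcgttgatgaac
osa-MIR397b-p5: tTGAGTGCagcgttgatgaacc
The third of these, also listed as mdm-miR408a_L-1R+3 with the same letters, shares a run of 20 bases with osa-miR408-3p but begins 1 base later, so their seeds differ by a shift of 1. The pair of miR397 sequences carry names of precursor arms, share their seed and their first 21 bases, and differ only in length. Bases were counted back from the end of the pairing on the transcript, with no allowance for gaps. By this count the listed cut fell at base 10 in 21 of the 22 pairs, beside 2999 of all 3262 pairs with reads. Since reads are listed at predicted cuts, this is not a result about these small RNAs. The exception was ZS03t0818200-01, counted as base 9 of osa-miR528-5p. Its range, bases 429 to 448, is shorter than that small RNA, so the base faced is not settled. The ranges of ZS07t0470600-01 and ZS09t0219100-01 with osa-miR528-5p, and of IAA30 and NUDT3 with osa-miR408-5p, are also shorter than their small RNA. For these pairs base 10 is likewise a count without gaps and is not settled.

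ZS07g0470600 dominated these sites. osa-miR528-5p pairs with bases 453 to 472 of its single listed transcript, ZS07t0470600-01, with an alignment score of 2, a penalty that grows with mispairing from 0 to 4 in the deposited table. The deposited table gives it no symbol or description beyond anchored component of plasma membrane. Reads at the cut, position 463, numbered 285 in darkness and 2667 in the light. The level was 18479 TPB (16396 to 20754) in darkness and 78323 TPB (75378 to 81353) in the light, so the intervals lay far apart. The light over dark ratio was 4.24, with a counting interval of 3.75 to 4.81. The authors divide reads among the transcript versions they match, so its place among other genes was taken from sums over all versions and sites of a gene. By gene it ranked 1 of 823 in the light, but ARF18 at 76074 TPB (73173 to 79061) had an overlapping interval, so the order of these 2 genes is not settled. In darkness it ranked 5. Its interval there overlapped that of NFYA10 next above it, at 18998 TPB (16885 to 21302), and lay above that of SPL16 next below it, at 12708 TPB (10991 to 14617). ARF18, an auxin response factor by its symbol, ranked 1 in darkness at 51528 TPB (48008 to 55238), far above ZS07g0470600.

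The weight of this single cut in each library can be given as a share. It held 91.0% of the TPB of all 18 sites in darkness and 97.7% in the light. Of the TPB at every listed site of the table, it held 5.20% in darkness and 16.0% in the light. Without it, the remaining sites of the 3 families summed to 1837 and 1850 TPB. It was also the only one of the 18 sites in category 0, which in the usual degradome scheme is a cut with more reads than any other position of its transcript, and it was so in both libraries. Category 0 took 8.84% of all sites with reads in darkness and 6.78% in the light. In the authors' deposited table its p-values were 0.00283 and 0.00326, and the next lowest among these sites was 0.183.

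**Figure D1:**
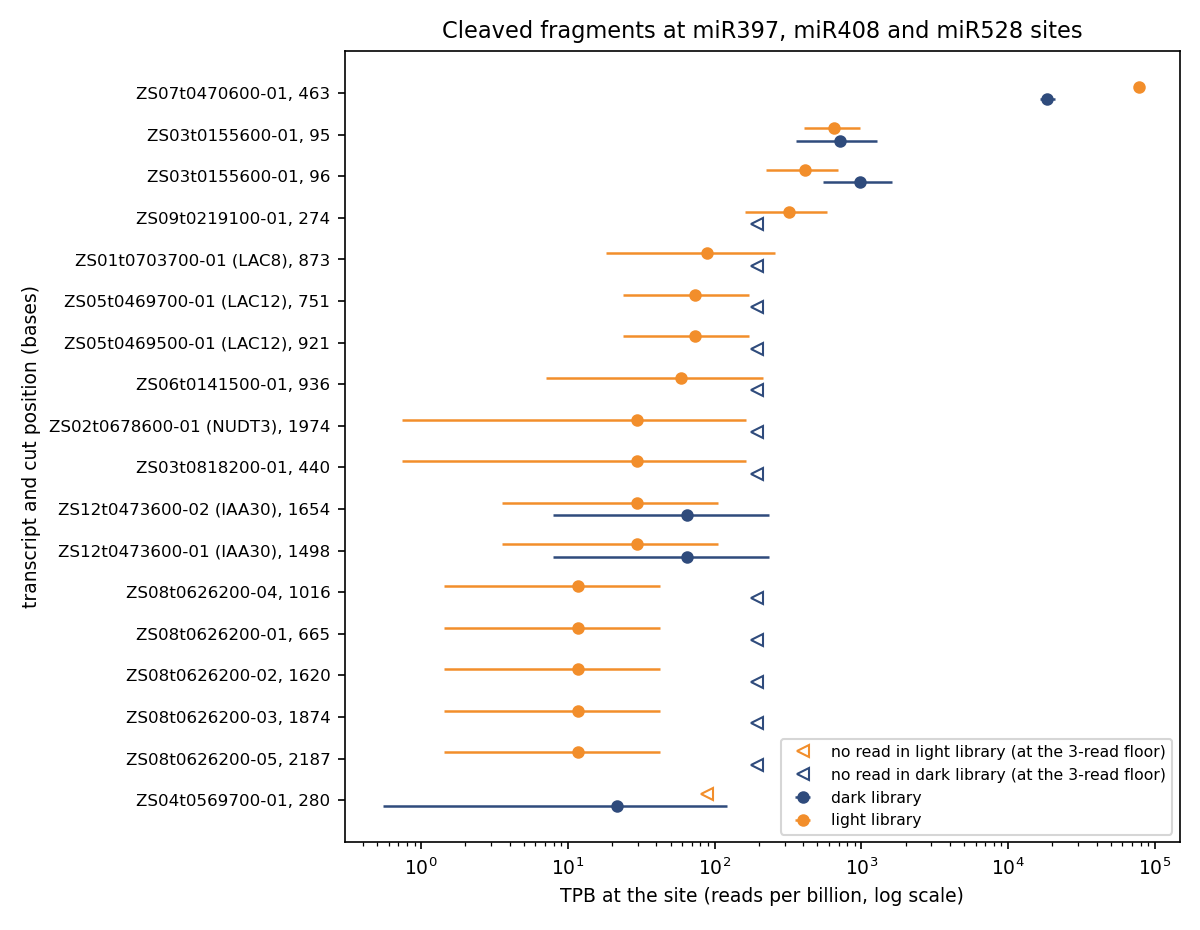
TPB at each of the 18 sites on a log axis, for the dark library (blue) and the light library (orange), with 95% counting intervals as bars. Open triangles stand at the level of 3 reads for a library with no read. The site of ZS07t0470600-01 stands apart from the rest at 18479 and 78323 TPB.

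ZS03g0155600 was the only other gene of the group with over 20 reads, and its fragments came from 2 adjacent positions. This transcript, too, is described only as an anchored component of plasma membrane. osa-miR408-3p pairs with bases 85 to 105 at a score of 1, and the later-starting miR408 variant with bases 82 to 104 at a score of 3. Their predicted cuts fall at positions 96 and 95, each opposite base 10 of its own small RNA. Position 96 had 15 reads in darkness and 14 in the light, or 973 and 411 TPB. Position 95 had 11 and 22 reads, or 713 and 646 TPB. The level at position 96 was lower in the light, at a ratio of 0.423 (0.189 to 0.939), whereas position 95 stood at 0.906 (0.421 to 2.07), an interval that includes 1. Position 96 thus held 57.7% of the reads of both positions in darkness (36.9 to 76.6) and 38.9% in the light (23.1 to 56.5). These intervals overlap, and the ratio of the light over dark ratios of positions 95 and 96 was 2.14, with an exact conditional interval of 0.683 to 6.79. A shift between the 2 positions was therefore not detectable at this depth.

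Summed over both positions ZS03g0155600 stood at 1686 TPB in darkness and 1057 in the light, on 26 and 36 reads. The ratio was 0.627, and its interval, 0.368 to 1.08, includes 1. Both positions were in category 2 in both libraries, which in the usual scheme lies below the highest position of the transcript. The light over dark ratio of ZS07g0470600 was 6.76 times that of ZS03g0155600 by reads, with an exact conditional interval of 3.85 to 11.7. This comparison within the libraries does not depend on how they are scaled. The miR528 and miR408 targets with most reads therefore differed in their ratios by more than counting error, in these 2 libraries.

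A site was taken as past the fold when it was at least 2-fold higher or lower, against the floor of 3 reads where a library had none, with an interval that excluded 1. Of the 18 sites, the cut of ZS07t0470600-01 was past the fold as higher in the light and position 96 of ZS03t0155600-01 as lower. Over all 2064 sites, 1.5% were past it as higher and 1.65% as lower. By gene, ZS07g0470600 alone was past the fold, as higher, of 12, beside 2.67% of all 823 genes as higher and 2.31% as lower. With 1 gene on 1 side, these counts say nothing of the group as a whole. Position 96 lost its place with a scaling of the libraries by the median of their shared sites.

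**Figure D2:**
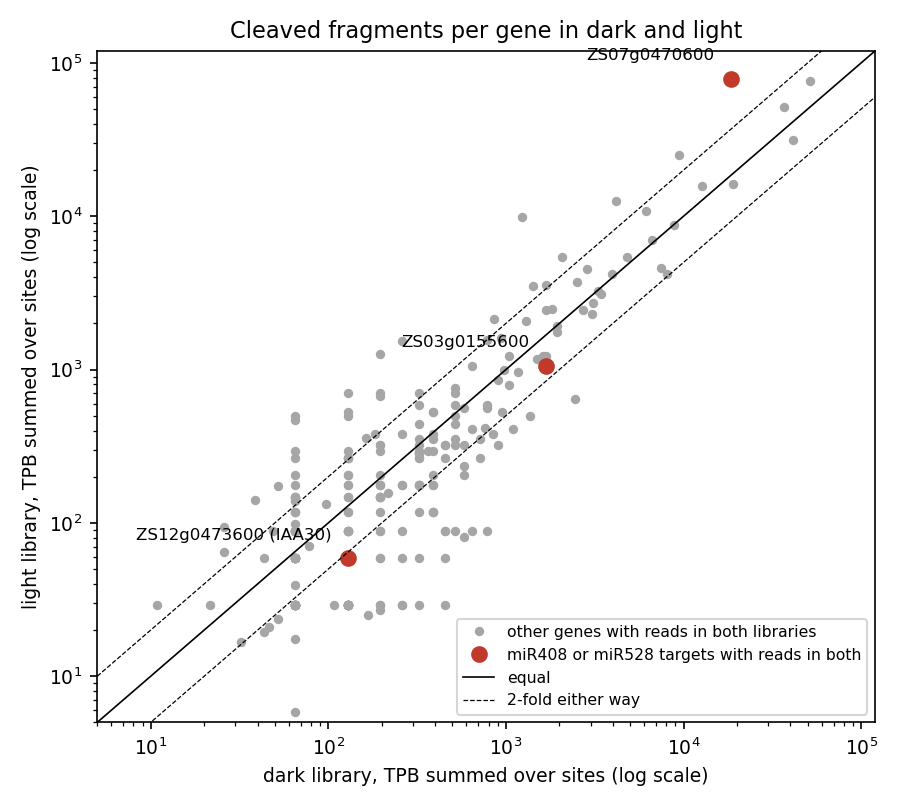
TPB per gene in the dark library (x axis) and in the light library (y axis), both on log scales, for the 255 genes with reads in both. The red points are ZS07g0470600, ZS03g0155600 and IAA30, with ratios of 4.24, 0.627 and 0.453. ZS07g0470600 lies above the dashed lines of 2-fold, and IAA30 lies just below them on 2 reads per library, with an interval of 0.0328 to 6.25.

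The miR397 sites with reads lay in laccase genes by their symbols, and all their reads were in the light. LAC8, cut at position 873 with a score of 3, had 0 reads in darkness and 3 in the light, or 88.1 TPB (18.2 to 257). The LAC12 genes ZS05g0469500 and ZS05g0469700 were cut at positions 921 and 751 with a score of 1. Each had 0 reads in darkness and 5 in the light, counted as 2.5 normalized reads or 73.4 TPB (23.8 to 171). Their reads were equal and divided over 2 matching places, so both LAC12 genes may rest on the same 5 reads. At the light level the dark library would have held 1.36 reads for LAC8 and 2.26 raw reads for either LAC12 gene. The lower ends of the counting intervals of the ratio were 0.187 for LAC8 and 0.415 for the LAC12 genes, both under 1. A difference between dark and light was not detectable for any laccase gene at this depth. Taken at the floor of 3 reads, a count of 0 in darkness allows a level of up to 195 TPB, above the light levels of all 3 genes. The sites were in category 2, and the authors' p-values were 0.664 for LAC8 and 0.65 for the LAC12 genes.

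ZS09g0219100 is described in the deposited table as L-ascorbate oxidase-like, after the cell wall enzyme that oxidises ascorbate. The table gives the same description to LAC8 and both LAC12 genes, so it does not separate ascorbate oxidases from laccases. osa-miR528-5p pairs with its bases 264 to 283 at a score of 4, the highest penalty listed. Its cut at position 274 had 0 reads in darkness and 11 in the light, or 323 TPB (161 to 578). Against the floor of the dark library this is at least 1.66-fold higher, and the counting interval of the ratio began at 1.14. The lower end of that interval fell under 1 with a scaling by the summed level of shared sites. The site was in category 2, and its p-value in the authors' deposited table was 0.999. By reads, the exact conditional interval of its ratio over that of ZS03g0155600 began at 1.61. The site entered on its light reads alone, so this comparison is not support for a difference. At the light level the dark library would have held 4.98 reads.

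The remaining 6 genes had 1 or 2 reads in a library. ZS04g0569700, whose deposited terms give copper ion binding and primary amine oxidase activity, had 1 read in darkness, shared with other places and worth 21.6 TPB, and none in the light, at a miR528 site of score 4. It was the only gene of the 12 with reads in darkness alone. ZS06g0141500, paired with osa-miR408-3p at a score of 4, and ZS03g0818200, paired with osa-miR528-5p, share the plasma membrane term. They had 0 reads in darkness and 2 and 1 in the light, or 58.7 and 29.4 TPB. ZS03g0818200 is also listed for the miR408 variant, at bases 383 to 404, and no read fell at that site. IAA30, an Aux/IAA repressor of auxin response by its symbol, had 2 reads in either library, shared between 2 transcript versions at positions 1498 and 1654. This gave 130 TPB in darkness and 58.7 in the light, at an osa-miR408-5p site of score 2.5. Another small RNA, osa-MIR396h-p5_1ss16GA, had 2 reads in the light at position 365 of both versions. NUDT3, a nudix hydrolase by its symbol and also paired with osa-miR408-5p, had 0 reads in darkness and 1 in the light, or 29.4 TPB. ZS08g0626200, with terms of a ubiquitin-protein transferase, had 0 and 2 reads, shared among 5 transcript versions at 11.7 TPB each. None of these 6 genes had enough reads for a direction.

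Across the 12 genes, 3 had reads in both libraries, 8 in the light alone and 1 in darkness alone. Over all 823 genes, 31.0% had reads in both, 49.8% in the light alone and 19.2% in darkness alone. The library total was 2.21 times as large in the light, and the part of this difference in these counts was not tested. At most 5 reads in both libraries together were found in 9 of the 12 genes and in 75.0% of all genes.

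**Figure D3:**
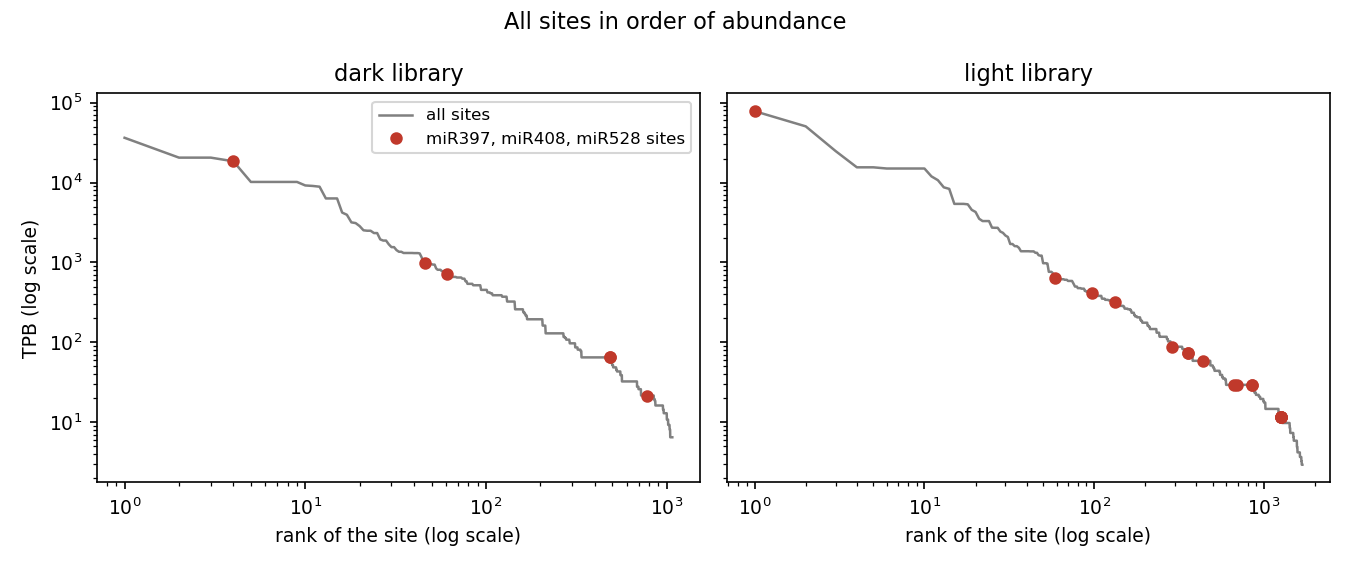
All sites with reads in order of their TPB, with rank on the x axis and TPB on the y axis, both on log scales, for the dark library (left) and the light library (right). Red points are the miR397, miR408 and miR528 sites. Each transcript version is a point of its own, with shared reads divided among versions, so ranks here differ from ranks by gene. By transcript version ZS07t0470600-01 has rank 4 in darkness and rank 1 in the light, and every other red point lies at or under 973 TPB.

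The same small RNAs had 101 listed pairs with no reads. Apart from those of the miR408 variant at ZS03g0818200, these pairs lay in 55 further genes. In all, 12 of their 67 listed genes had reads (17.9%), beside 823 of 9660 genes (8.52%) over the whole table. By transcript it was 17 of 95 (17.9%, with a 95% Wilson interval of 11.5 to 26.8), and 1715 of 15630 for all other small RNAs. Transcript versions and small RNA variants share reads and are not independent, so no test was made. The Wilson interval treats the 95 transcripts as independent, so it is too narrow and cannot serve to compare these shares. Of the 17, 5 are versions of ZS08g0626200 that share 2 reads in the light, and 2 are versions of IAA30. By family, 3 of 16 miR397 genes, 4 of 23 miR408 genes and 5 of 29 miR528 genes had reads, and ZS03g0818200 is in both of the latter families. The shares were 18.8%, 17.4% and 17.2%.

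The share of genes with reads was highest at the lowest penalties, on small numbers of genes. The 3 genes with a best score of 1, namely ZS03g0155600 and both LAC12 genes, all had reads, beside 94 of 614 genes (15.3%) with that score in the whole table. At a best score of 2 or less, 4 of 9 genes of the 3 families had reads. From 2.5 to 3.5 it was 2 of 15, and at 4 it was 6 of 43. In the whole table these shares were 11.4%, 8.46% and 6.54%. Both LAC12 genes may rest on the same 5 reads, so they may not be separate in the counts at the lowest scores. The median score was 3 over pairs with reads and 4 over pairs without. With 1 pair kept per transcript and position, both medians were 4, so the difference in medians rests on pairs that repeat a site.

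**Figure D4:**
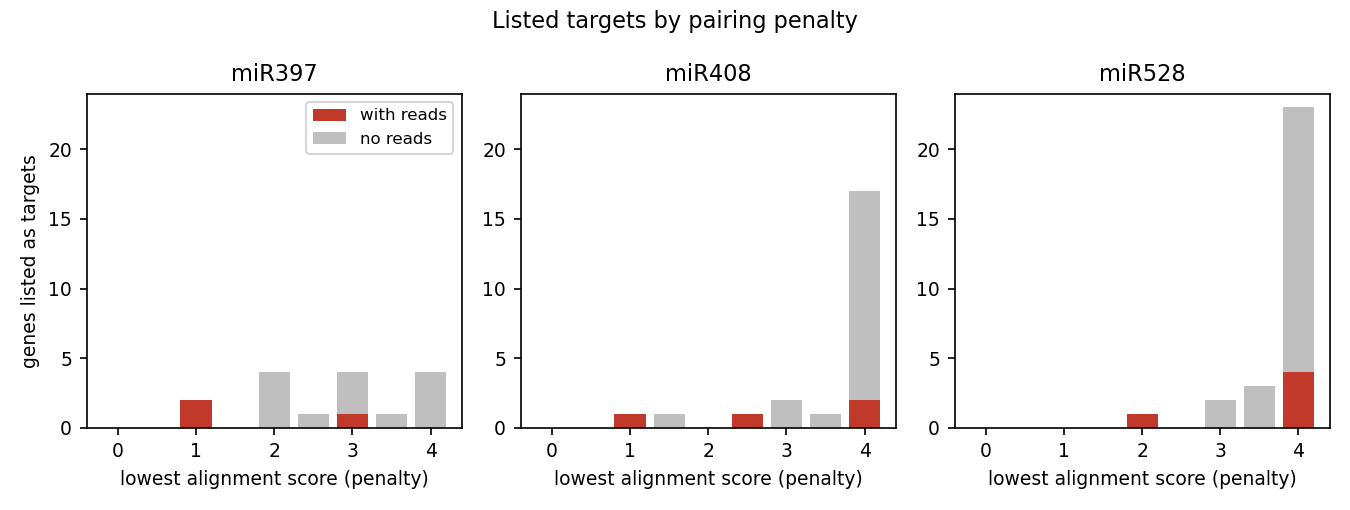
Number of genes listed as targets of miR397, miR408 and miR528 (y axis) by their lowest alignment score (x axis), split into those with reads (red) and those with none (grey). All genes at a score of 1 had reads, and the 4 miR397 genes at a score of 2 had none.

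Several well-paired targets had no read in either library. LPR1, by its symbol a multicopper oxidase known from Arabidopsis roots in low phosphate, pairs with miR408 at a lowest score of 1.5. LAC3 (ZS01g0684100), a further LAC12 gene (ZS01g0697700), LAC6 and LAC24 pair with the miR397 sequences at a score of 2. Among miR528 targets the lowest scores without reads were 3 for ZS06g0482700, which carries the copper term, and for ZS11g0047800. A further 3 without reads had a score of 3.5, among them LAC3 (ZS11g0331100) and ZS04g0759200, and the latter carries the plasma membrane term. For miR408 the next were ZS02g0619500, with the plasma membrane term, and ZS11g0088200, described as similar to cycloartenol synthase, both at 3. Taken at the floor of 3 reads, a count of 0 allows up to 195 TPB in darkness and 88.1 TPB in the light. These limits lie above the light levels of the LAC12 genes with reads, which were divided over 2 matching places. Undivided, their 5 reads in the light would exceed the 3 reads of the floor. Whether the unread laccases differ from them is therefore not settled. Of the 55 genes without reads, 4 had reads at a site of another small RNA, and none of those 4 carries the copper term.

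Of 45 genes in the table with the term copper ion binding or words for copper transport or chaperones, 5 had reads (11.1%), and all 5 were miR397 or miR528 targets described above. The description L-ascorbate oxidase was given to 18 genes, 15 of them with a LAC symbol, and 4 had reads. Of 17 genes with a LAC symbol, a list made after the table was seen, 3 had reads. A gene with superoxide dismutase words, CCS, had none. No gene of these lists was past the fold in either direction, beside 22 of all 823 genes as higher and 19 as lower. Those with reads had at most 11 in a library and none in the other. That is too few to reach 2-fold against the floor, so this count says nothing of the lists. No gene was found by the words laccase, plantacyanin, uclacyanin, plastocyanin or polyphenol oxidase.

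The genes whose ratio was nearest to that of ZS07g0470600 were sought among the 82 other genes with at least 20 reads and reads in both libraries. On the log2 scale, where ZS07g0470600 stood at 2.08, they were AP2 (ZS03g0765600) at 2.03, MPK8 (ZS01g0534200) at 1.86 and GRF4 (ZS02g0589700) at 1.80. By their symbols these are an APETALA-type transcription factor, a mitogen-activated protein kinase and a growth-regulating factor. This likeness rests on 2 libraries, and these genes had 2, 3 and 3 reads in darkness, so their intervals are wide. Over the 255 genes with reads in both libraries the median ratio was 0.883, and 7 genes had a larger one than ZS07g0470600. Among the 29 genes with at least 100 reads, the median ratio was 1.37. In that set 1 gene, HMG3 at 8.03, had a larger ratio than ZS07g0470600.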

How the data were processed

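Each line of the deposited table names a small RNA and a predicted target. Raw read counts at the cut are whole numbers, as the authors deposited them. Normalized reads and TPB are signal values by the authors. In the deposited values, normalized reads equalled raw reads over 1 to 10 matching places, and TPB was proportional to them within a library. The library total was taken from that factor, and whether it counts all reads or mapped reads alone is not stated. The alignment score, the degradome category and a p-value per pair and library are the authors' deposited values. The aligner, target finder, genome build and annotation are not named in the labels or file headers. Some dark columns are headed 1 h, and were read as the dark library because the TPB column headed D_5d is their normalized reads times 1 constant.

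Sites were formed by transcript and position, and genes by summing TPB over sites and versions, with raw counts from the version with most. Ratios are light over dark TPB, with Clopper-Pearson intervals of the raw counts scaled to the TPB ratio. Ratios of ratios have exact conditional intervals of the odds ratio. The interval step was checked on simulated data with independent counts per site and no shared or copied reads. Intervals of sums over a gene were not checked in this way. Python 3.11.15, numpy 2.4.6, pandas 2.3.3 and scipy 1.17.1 were used. No test between conditions was made. All genes with reads were named, and of those without reads the up to 5 with the lowest score per family. ZS01g0744400, ZS07g0026600, ZS08g0054500 and ZS01g0059200 also fell under that rule, with scores of 3.5, 2.5, 3.5 and 4 and no reads. The members and lists were chosen with earlier results of these data known. The sheets on auxin and cell wall, with 20 sample columns, were not used. The main sheet had 1 empty line. No sequences of the target sites were used here.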

Additional observations from a re-analysis of the deposited data

How the results depend on the processing

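Scaling the libraries by the median or by the sum of shared sites, with or without the miR397, miR408 and miR528 sites in that sum, left ZS07g0470600 past the fold each time. Its ratio fell to 3.13 with the sum scaling and to 3.55 with these sites left out of the sum. The lower end of the interval of ZS09g0219100 fell to 0.838 and 0.953 under the same scalings, so its interval then included 1, and no call was made for it on either scale. ZS03g0155600 was past the fold as lower with the sum scaling alone, at 0.462 (0.272 to 0.798). With the median scaling 1 of the 18 sites was past the fold, against 2 on the authors' scale, and 2.23% and 1.16% of all sites were past it as higher and lower. With the sum scaling those shares were 0.436% and 3.39%. On the log2 scale, light over dark was -0.18 for the median of shared sites and 0.44 for their sum. A fold of 1.5, or any fold against a library with no read, a setting added after the data were seen, gave 3 sites, the added one being that of ZS09t0219100-01. With any fold against no read, 2.52% of all sites were past it as higher and 2.37% as lower. These shares were not computed for a fold of 1.5. Asking for 5 reads in a library left 5.26% of transcripts with reads, beside 2.78% for other small RNAs. Keeping miR3979, also added after the data were seen, gave 8.57%, since few of its 257 pairs had reads. With 1 pair per position the difference in median score was 0. For the ratios of ZS07g0470600, ZS03g0155600, ZS09g0219100 and LAC8, raw reads and the most read site alone changed no call. The most read site of ZS03g0155600 gave 0.906. No paired analysis was possible because there is 1 library per condition. Few reads limit all genes but ZS07g0470600.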

Other observations

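miR398, a further small RNA linked to copper, was looked up after the data were seen. Its 12 listed pairs named 5 genes, none of them with the copper ion binding term, and 1 pair had reads. That pair, osa-miR398b with SBP1 at a score of 3.5, had 3 reads in darkness and 2 in the light.

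The opposite strands of the miR528 and miR397 precursors, osa-miR528-3p and osa-MIR397a-p3, had 16 and 3 listed pairs and no reads at any. osa-miR528-3p shares a run of 10 bases with osa-miR408-3p.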
